A study of Mus musculus with 8 samples.

Results

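Cytosolic ribosomal protein mRNAs were measured in cultured mouse preSC cells, which stand for an early, precancerous state of neuroendocrine lung cells, after targeting of Max. The members are the 85 gene symbols, of 23284 in the count tables, that begin with Rpl or Rps and a digit, or are Rplp0, Rplp1 or Rplp2. Rps6k kinase genes and symbols marked as pseudogenes with -ps were left out. They comprise 30 small-subunit genes, 46 large-subunit genes, and 9 others, which are 8 paralogs and Rps19bp1, whose protein binds RPS19 and is not a ribosomal protein. Enough reads for a test were present for 81 of the 85.

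RNA was sequenced from 4 MaxKO and 4 Ctrl libraries. The MaxKO populations received an sgRNA against Max, and the Ctrl populations a control sgRNA. Both were selected with puromycin, and both came from the same background, Chga-GFP with conditional (lox) alleles of Rb, p53 and p130, in strain 129/SvJ; C57BL/6. The populations were polyclonal, and the share of edited Max alleles was not measured here. Whether the libraries within a group stem from separate cultures is not stated in the labels. The p-values thus describe only how far these 8 libraries spread, and that spread may be technical.

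Ribosomal proteins join the ribosomal RNAs to form the cytosolic ribosome, mostly in equal numbers, and their genes are transcribed at high levels in growing cells. MAX pairs with MYC family proteins and binds the E-box CACGTG, and ribosomal protein genes are among the genes at which MYC is commonly found. Their mRNAs typically start with a C followed by pyrimidines, the terminal oligopyrimidine (TOP) tract, through which LARP1 and the mTOR pathway control translation. They have also given rise to many retrocopies, which are processed pseudogenes inserted elsewhere in the genome. A read that aligns equally well to a gene and its retrocopy is difficult to assign to either.

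Start regions of 6 members with a TOP start are shown because the pyrimidine tract is the feature through which the translation of these mRNAs is known to be controlled. Each line runs from 20 bases before the annotated start to 15 bases after it, and the capitals mark the first 5 transcribed bases. The sequences are from RefSeq, build GRCm38.p6. They lie at chr9:120571497-120571531 on the plus strand (Rpl14), chr14:18270972-18271006 on the minus strand (Rpl15), chr11:114668560-114668594 on the plus strand (Rpl38), chr4:86857353-86857387 on the minus strand (Rps6), chr17:33955651-33955685 on the minus strand (Rps18) and chr7:141447631-141447665 on the plus strand (Rplp2).
Rpl14: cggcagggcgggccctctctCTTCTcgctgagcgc
Rpl15: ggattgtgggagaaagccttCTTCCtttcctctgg
Rpl38: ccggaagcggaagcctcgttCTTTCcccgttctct
Rps6: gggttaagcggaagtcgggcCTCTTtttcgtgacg
Rps18: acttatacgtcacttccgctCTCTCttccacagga
Rplp2: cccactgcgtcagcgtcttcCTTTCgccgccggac
The paralogs Rpl7l1 (chr17:46782642-46782676, minus strand) and Rpl22l1 (chr3:28805488-28805522, plus strand) do not begin in this way at the start annotated there.
Rpl7l1: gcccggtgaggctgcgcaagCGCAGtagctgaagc
Rpl22l1: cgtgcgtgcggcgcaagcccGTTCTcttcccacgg

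RefSeq windows from 250 bases before to 50 bases after the start were found for 64 members, and a gene was counted if any of its windows held the motif. A start base C followed by 4 pyrimidines was present in 13 of the 64 (20.3%), against 3.01% of 27025 genes with a window and 3.07% of the 9472 tested genes with one. This match depends on the exact annotated start base, so a member without it can still have the tract. Rpl35a, for example, matched at 1 of its annotated starts and not at the others. The other motifs were searched on both strands. CCGGAAG, the ETS factor motif, was present in 25 members (39.1%), against 9.93% of all genes and 19.2% of tested genes. The mitochondrial ribosomal protein genes, a separate family that serves the ribosome of the mitochondrion, held CCGGAAG in 37.7% of 69 windows and the TOP start in 0 of 69. GGGCGG, the GC box, was in 62.5% of members, which is above the 38.2% of all genes and below the 69.7% of tested genes. AAGATGGC, the YY1 motif, which can overlap CCGGAAG, was in 9.38% of members, against 3.19% of all genes and 5.01% of tested genes.

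The E-box CACGTG was present in 6 of the 64 members (9.38%), against 8.09% of all genes with a window and 11.7% of tested genes. The 6 sites are shown in capitals with 12 bases on each side, because CACGTG is the sequence to which MAX dimers bind. They lie at chr7:45128928-45128957 on the minus strand (Rpl13a), chr9:120571337-120571366 on the plus strand (Rpl14), chr11:98026679-98026708 on the plus strand (Rpl19), chr11:97782425-97782454 on the minus strand (Rpl23), chr3:130730536-130730565 on the minus strand (Rpl34) and chr7:24884781-24884810 on the plus strand (Rps19).
Rpl13a: cgctccgaaaccCACGTGacatcccgcccc
Rpl14: ccaagctcactgCACGTGtctgaggagaag
Rpl19: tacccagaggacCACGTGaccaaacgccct
Rpl23: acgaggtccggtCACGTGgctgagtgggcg
Rpl34: cacctaacttctCACGTGacgttcctaccg
Rps19: tggagccgcggcCACGTGcgagcggcaggc
A match is a run of letters, and binding at these sites was not measured here.

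MaxKO libraries held 14952291 to 19480947 reads in genes and Ctrl libraries 13711278 to 19804949. Levels are given as CPM, which are read counts divided by the library size after TMM scaling. A gene with no read could have had up to 0.157 to 0.203 CPM in MaxKO libraries and 0.151 to 0.220 CPM in Ctrl libraries, the level of 3 counts, which covers counting error only. Max itself had 42.3, 42.3, 59.1 and 68.0 CPM in MaxKO libraries 1 to 4, against 65.5, 70.2, 75.2 and 61.9 CPM in Ctrl libraries 1 to 4. MaxKO library 4 lay inside the Ctrl range, and small edits at a guide's target need not lower an mRNA. All 7 neuroendocrine markers were tested, and their summed level was 6084 to 6835 CPM in MaxKO and 5192 to 7488 CPM in Ctrl libraries.

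Markers of other cells summed to little beside the neuroendocrine ones. The 6 fibroblast markers summed to 49.3 to 65.7 CPM in MaxKO and 23.9 to 44.5 CPM in Ctrl libraries, of which nearly all was Dcn. Dcn was higher in MaxKO libraries without overlap (0.77 on the log2 scale, edgeR adjusted p = 0.0124). Pdgfra, of the same list, was lower without overlap, at 0.260 ± 0.139 CPM in MaxKO and 1.35 ± 0.639 CPM in Ctrl libraries (-2.37, edgeR adjusted p = 0.0042, SD, n = 4 each). Lum was at 0, and Col1a1 had at most 0.191 CPM in MaxKO and 0.403 CPM in Ctrl libraries. The haematopoietic markers summed to 2.46 to 4.20 CPM in MaxKO and 2.97 to 5.64 CPM in Ctrl libraries. The endothelial markers summed to 0.887 to 1.22 CPM in MaxKO and 1.01 to 2.12 CPM in Ctrl libraries. Markers of other lung epithelium summed to 3.34 to 5.68 CPM in MaxKO and 4.93 to 6.54 CPM in Ctrl libraries, with Krt5 at 0. The part of these markers in the results was not tested.

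The ribosomal protein mRNAs as a family did not separate MaxKO from Ctrl cells. All 85 symbols took 4.51%, 3.92%, 4.37% and 3.95% of the counted reads in MaxKO libraries 1 to 4, against 4.52%, 4.70%, 5.50% and 3.60% in Ctrl libraries 1 to 4. All 4 MaxKO values lay between the lowest and the highest Ctrl value, which belonged to Ctrl 4 and Ctrl 3. The means were 4.19% ± 0.296 in MaxKO and 4.58% ± 0.782 in Ctrl libraries (SD, n = 4 each). The difference of -0.39 percentage points was smaller than the Ctrl SD. It was -0.086 without Ctrl 3 and -0.72 without Ctrl 4. In whole-population RNA, fewer cells of a type and less RNA per cell cannot be told apart.

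**Figure D1:**
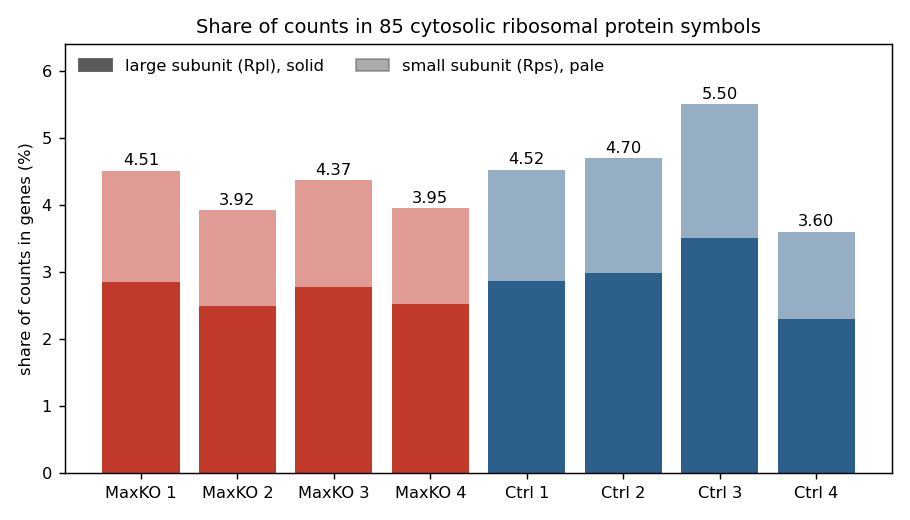
Share of counts in genes (%, y axis) taken by the 85 symbols in each of the 8 libraries (x axis), with large-subunit genes solid and small-subunit genes pale. The MaxKO bars reach 3.92 to 4.51% and lie between the lowest and the highest Ctrl bar, 3.60% and 5.50%.

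The subunits kept a nearly fixed proportion in every library. Small-subunit symbols took 1.53% ± 0.112 of counts in MaxKO and 1.67% ± 0.287 in Ctrl libraries. Large-subunit symbols took 2.66% ± 0.185 in MaxKO and 2.91% ± 0.495 in Ctrl libraries (SD, n = 4 each). The ratio of small-subunit to large-subunit counts was 0.580, 0.576, 0.573 and 0.570 in MaxKO libraries 1 to 4, against 0.582, 0.574, 0.573 and 0.569 in Ctrl libraries 1 to 4. The lowest and highest ratios differed by far less than the shares did, and the groups overlapped fully.

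The members moved together across libraries, and mostly within the Ctrl group. Ctrl 3 had the highest level of 64 of the 81 tested members, and Ctrl 4 the lowest level of 72. The median member lay 0.07, -0.14, 0.02 and -0.13 from its own 8-library mean on the log2 scale in MaxKO libraries 1 to 4, against 0.06, 0.12, 0.33 and -0.32 in Ctrl libraries 1 to 4. Thus the widest gap was between 2 Ctrl libraries. The median SD of a member's log2 CPM was 0.12 in MaxKO and 0.29 in Ctrl libraries. After subtraction of each library's median member it was 0.05 in MaxKO and 0.09 in Ctrl libraries.

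Other abundant genes did not show this pattern to the same extent. Of the 75 members with a mean of at least 100 CPM over the 8 libraries, 84.0% were highest in Ctrl 3, 93.3% were lowest in Ctrl 4 and 78.7% were both. Of the 2633 other genes at that level, 18.2% were highest in Ctrl 3, 19.0% were lowest in Ctrl 4 and 5.47% were both. The median coefficient of variation of these members was 8.08% in MaxKO and 18.7% in Ctrl libraries. That of the other genes was 5.50% in MaxKO and 9.82% in Ctrl libraries. These shares are descriptions of 8 libraries, and no test was made of them.

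**Figure D2:**
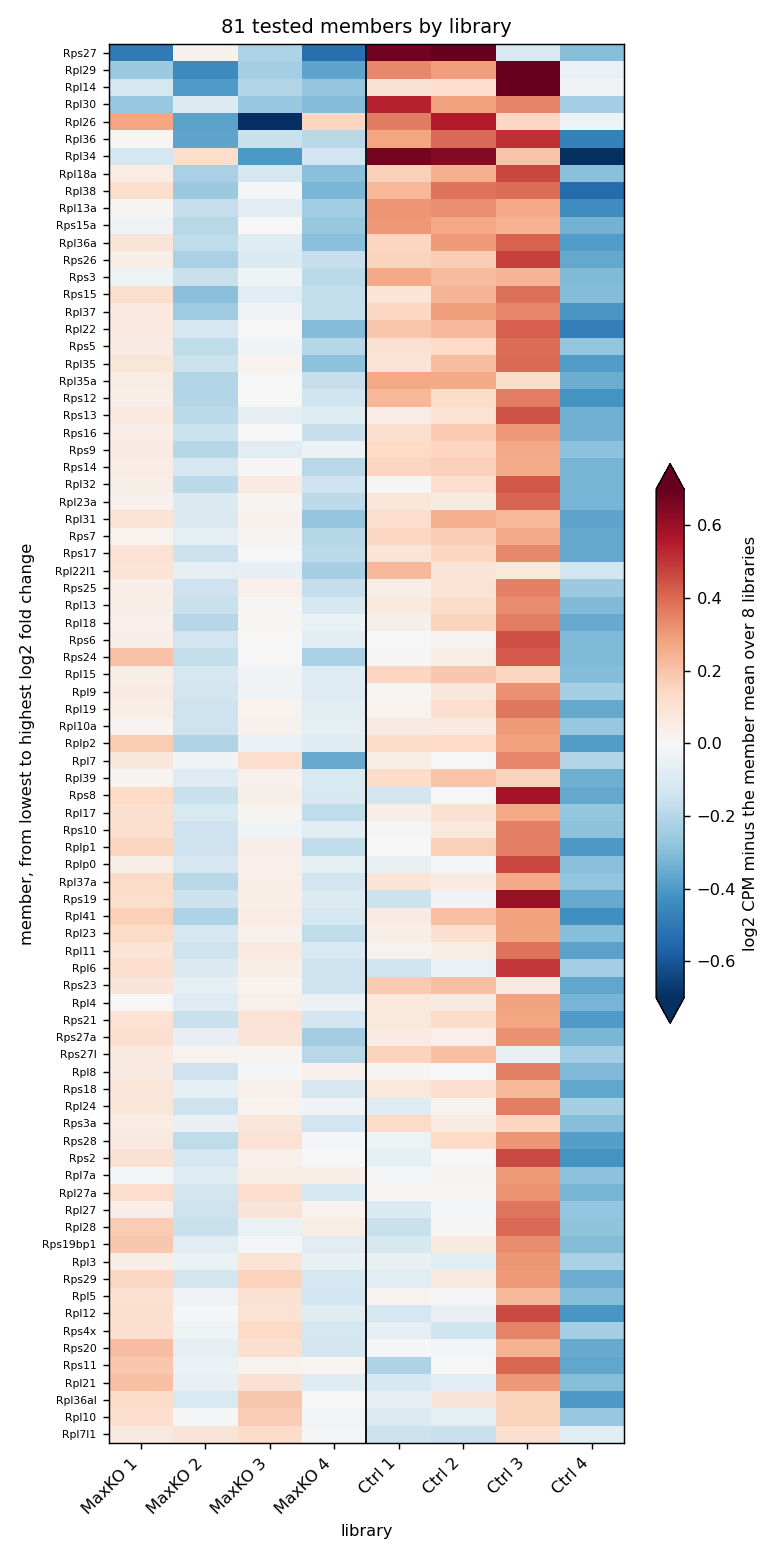
Log2 CPM of the 81 tested members (rows, ordered from the lowest to the highest log2 fold change of MaxKO over Ctrl) minus each member's mean over the 8 libraries (columns), with colours capped at 0.7 in either direction. Ctrl 3 is red and Ctrl 4 blue in most rows, while the MaxKO columns are paler, with a library median of -0.14 to 0.07.

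The share of reads outside exons split the Ctrl libraries in another way. It was 20.5 to 21.5% in MaxKO libraries, against 18.5%, 18.6%, 23.3% and 23.4% in Ctrl libraries 1 to 4. Ctrl 3 and Ctrl 4, which stood at opposite ends for the members, were alike in this measure. The share of alignments that were not unique was 10.5 to 11.3% in MaxKO libraries and 9.21 to 11.5% in Ctrl libraries.

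Member by member, few were called different between the groups. A member that was not called is not shown to be equal, because the Ctrl libraries spread widely. By edgeR's quasi-likelihood test with Benjamini-Hochberg adjustment over 13358 genes, 0 members were higher and 2 were lower in MaxKO libraries at an adjusted p under 0.05. Among all tested genes 23.1% were called, 10.9% higher and 12.2% lower, while the 2 called members were 2.47% of 81. DESeq2 and limma-voom also called 0 members higher and 2 lower, while DESeq2 called 12.5% of all tested genes higher and 13.2% lower, and limma-voom 11.4% higher and 11.5% lower. At an unadjusted p of 0.05 in edgeR, 0 members were higher and 5 lower (6.17%), while 17.4% of all tested genes were higher and 18.1% lower. For 70 of the 81 members all 4 MaxKO values lay inside the Ctrl range, and for 60 of these the range ran from Ctrl 4 to Ctrl 3. In 2 members, the same that were called, the groups did not overlap, which held for 26.4% of all tested genes.

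The fold changes were small and mostly below 0. The median log2 fold change of MaxKO over Ctrl was -0.09 over the 81 members, against -0.0036 over all tested genes. It ran from -0.69 to 0.13, was negative for 70 members and positive for 11, and lay within 0.2 of 0 for 64. The 30 small-subunit members had a median of -0.11 with 0 called, and the 46 large-subunit members a median of -0.09 with 2 called lower. The 5 tested members among the paralogs and Rps19bp1 had a median of -0.00034 with 0 called. The median of all members depended on single Ctrl libraries, at -0.00051 without Ctrl 3 and -0.20 without Ctrl 4.

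**Figure D3:**
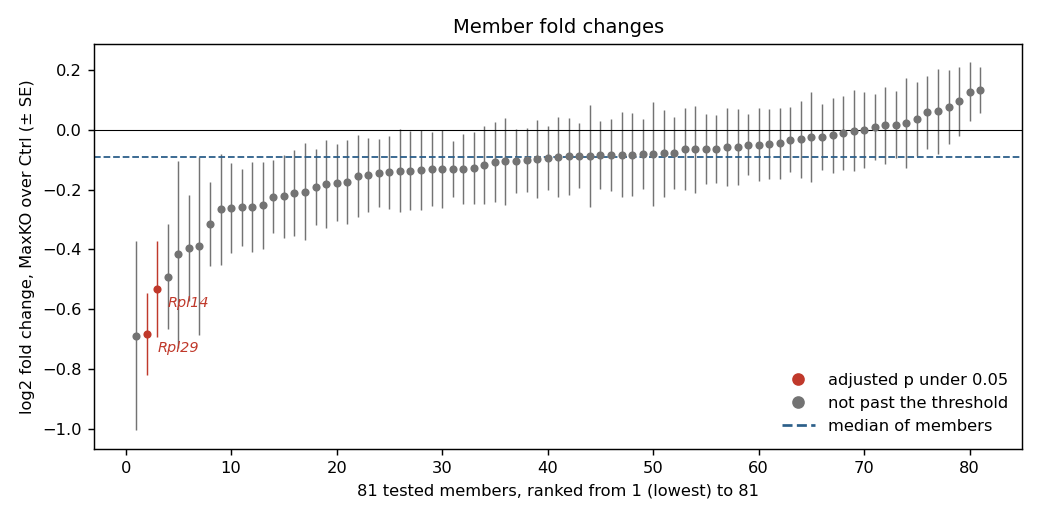
Log2 fold change of MaxKO over Ctrl (y axis) with its SE (bars) for the 81 tested members, ranked from the lowest to the highest (x axis). Rpl29 and Rpl14, in red, passed an adjusted p of 0.05, and most of the rest lie within 0.2 of 0, around the median of -0.09 (dashed line).

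Rpl29 was the member with the clearest difference. It encodes a small basic protein of the large subunit that is also known to bind heparin. Its level was 234.1, 205.8, 237.5 and 217.2 CPM in MaxKO libraries 1 to 4, against 354.1, 343.3, 467.7 and 271.1 CPM in Ctrl libraries 1 to 4. Every MaxKO library was below every Ctrl library, and the nearest, MaxKO 3 and Ctrl 4, stood apart by less than the Ctrl SD. The means were 224 ± 14.8 CPM in MaxKO and 359 ± 81.2 CPM in Ctrl libraries (SD, n = 4 each). The log2 fold change was -0.68 (SE 0.137, edgeR adjusted p = 0.0041). The call held in each of the 8 fits that left out 1 library, with adjusted p of 0.000559 to 0.0195. It also held when libraries were scaled to the summed members, that is, relative to the family's own level (-0.58, SE 0.158, edgeR adjusted p = 0.0145).

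Rpl14, another large-subunit gene, whose start and E-box are shown above, was the other called member. Its level was 478.5, 395.2, 451.1 and 431.9 CPM in MaxKO libraries 1 to 4, against 560.2, 564.8, 906.7 and 511.4 CPM in Ctrl libraries 1 to 4. All MaxKO libraries were below all Ctrl libraries, and Ctrl 3 stood far above the other Ctrl libraries. The means were 439 ± 35.0 CPM in MaxKO and 636 ± 182 CPM in Ctrl libraries (SD, n = 4 each). The log2 fold change was -0.53 (SE 0.161, edgeR adjusted p = 0.033), and without Ctrl 3 it was -0.31 (edgeR adjusted p = 0.0135). The call ended when any 1 MaxKO library was left out, with edgeR adjusted p of 0.0547 to 0.103. It also ended when libraries were scaled to the summed members (-0.43, edgeR adjusted p = 0.0835).

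Rpsa, the small-subunit gene for the protein first described as a laminin receptor precursor, is outside the symbol rule but had a like profile. It had 906, 745, 871 and 753 CPM in MaxKO libraries 1 to 4, against 952, 961, 1762 and 997 CPM in Ctrl libraries 1 to 4. The groups did not overlap, but Ctrl 1 lay close above MaxKO 1 and Ctrl 3 far above all. The log2 fold change of -0.51 (SE 0.188) missed the threshold in edgeR (adjusted p = 0.0729). It passed in DESeq2 (adjusted p = 0.0215). In edgeR it passed without Ctrl 1 (-0.60, adjusted p = 0.0492), against Ctrl 1 and 2 (-0.23, adjusted p = 0.0347) and against Ctrl 3 and 4 (-0.76, adjusted p = 0.0151). Without Ctrl 3 it was -0.24 and missed the threshold (edgeR adjusted p = 0.0552). Fau and Gnb2l1, the gene of RACK1, also lie outside the rule and did not pass. Their log2 fold changes were -0.22 for Fau (edgeR adjusted p = 0.26) and -0.04 for Gnb2l1 (edgeR adjusted p = 0.82).

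**Figure D4:**
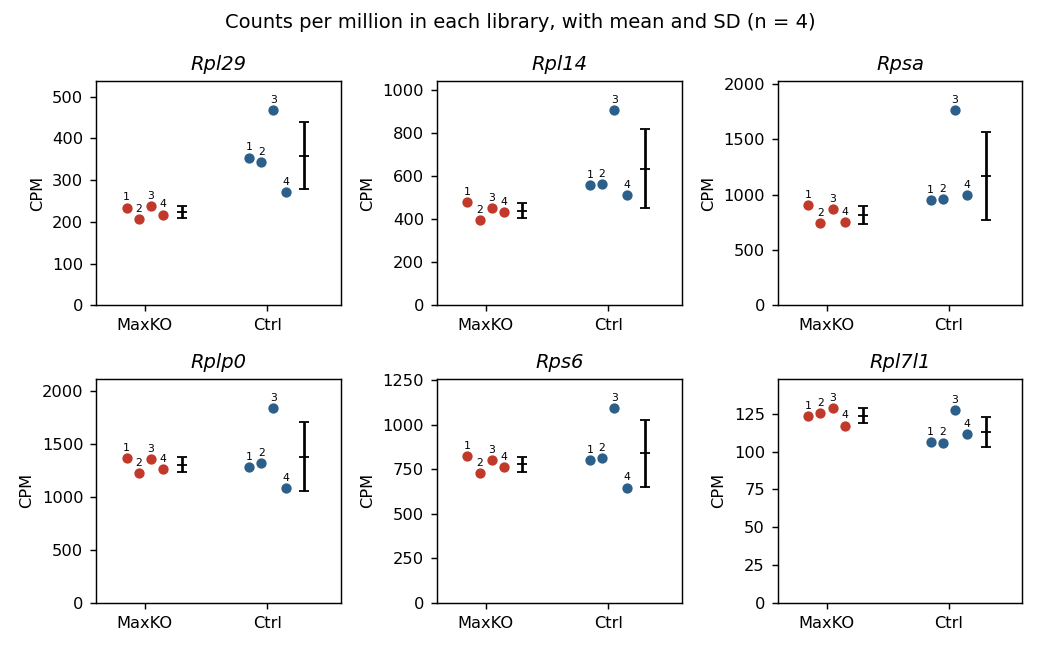
CPM (y axis, from 0) of 6 genes in MaxKO libraries (red) and Ctrl libraries (blue), numbered by replicate, with the mean and SD (n = 4) beside each group. Rpl29, Rpl14 and Rpsa have no overlap between the groups, while for Rplp0 and Rps6 the MaxKO points lie between Ctrl 4 and Ctrl 3.

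The genes of the ribosomal stalk, which recruits translation factors, showed the common pattern. Rplp0 had 1365, 1220, 1356 and 1263 CPM in MaxKO libraries 1 to 4, against 1278, 1315, 1836 and 1081 CPM in Ctrl libraries 1 to 4. MaxKO values fell between Ctrl 4 and Ctrl 3, and the log2 fold change was -0.08 (SE 0.139, edgeR adjusted p = 0.72). Rplp1 averaged 643 ± 70.0 CPM in MaxKO and 680 ± 143 CPM in Ctrl libraries, and Rplp2 averaged 318 ± 36.4 CPM in MaxKO and 339 ± 63.5 CPM in Ctrl libraries (SD, n = 4 each). Neither passed the threshold (edgeR adjusted p = 0.73 for Rplp1 and 0.67 for Rplp2).

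Rpl5 and Rpl11 encode the proteins that carry 5S RNA into the large subunit and that bind MDM2 when ribosome assembly is disturbed. Rpl5 averaged 892 ± 71.3 CPM in MaxKO and 881 ± 129 CPM in Ctrl libraries, with a log2 fold change of 0.02 (edgeR adjusted p = 0.93). Rpl11 averaged 1022 ± 85.8 CPM in MaxKO and 1069 ± 225 CPM in Ctrl libraries, with a log2 fold change of -0.06 (edgeR adjusted p = 0.78). The differences were smaller than the SD of either group.

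Rps6, which encodes the small-subunit protein phosphorylated by the S6 kinases, had 825, 729, 800 and 762 CPM in MaxKO libraries 1 to 4, against 803, 812, 1094 and 647 CPM in Ctrl libraries 1 to 4. The groups overlapped, and the log2 fold change was -0.11 (SE 0.134, edgeR adjusted p = 0.62). Rps4x, the X-linked small-subunit gene, averaged 745 ± 64.7 CPM in MaxKO and 727 ± 138 CPM in Ctrl libraries (edgeR adjusted p = 0.87). Rps4y2 had 1 to 6 reads in MaxKO and 3 to 4 in Ctrl libraries and was not tested.

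Several large-subunit genes have paralogs, and these were read at their own symbols. Rpl7l1, the paralog of Rpl7, had 123.5, 125.5, 128.9 and 117.3 CPM in MaxKO libraries 1 to 4, against 106.4, 106.0, 127.4 and 111.6 CPM in Ctrl libraries 1 to 4. It had the highest log2 fold change of all members, 0.13 (SE 0.077), which did not pass the threshold (edgeR adjusted p = 0.24). Without Ctrl 3, which overlapped the MaxKO libraries, it was 0.20 and passed (edgeR adjusted p = 0.0463). Rpl7 averaged 631 ± 88.7 CPM in MaxKO and 671 ± 108 CPM in Ctrl libraries (edgeR adjusted p = 0.67).

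Rpl22l1 is the paralog that is repressed by the RPL22 protein. It had 92.9, 83.1, 83.5 and 73.9 CPM in MaxKO libraries 1 to 4, against 102.0, 92.5, 91.6 and 79.1 CPM in Ctrl libraries 1 to 4, a log2 fold change of -0.13 (edgeR adjusted p = 0.36). Rpl22 averaged 159 ± 17.4 CPM in MaxKO and 183 ± 44.5 CPM in Ctrl libraries, a log2 fold change of -0.21 (edgeR adjusted p = 0.40). The groups overlapped for both genes. Rpl22 passed the threshold without Ctrl 4 (-0.36, edgeR adjusted p = 0.0186).

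Rpl36a and Rpl36al encode nearly identical proteins, and their log2 fold changes had opposite signs without passing the threshold. Rpl36a averaged 181 ± 20.5 CPM in MaxKO and 216 ± 48.4 CPM in Ctrl libraries (-0.26, edgeR adjusted p = 0.25). Rpl36al averaged 253 ± 23.0 CPM in MaxKO and 237 ± 38.7 CPM in Ctrl libraries (0.10, edgeR adjusted p = 0.60). The difference between the pair was not tested. Without Ctrl 4, Rpl36a had a log2 fold change of -0.40 and passed (edgeR adjusted p = 0.0130).

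Rps27l, a paralog of Rps27 that p53 induces in human cells, averaged 121 ± 9.64 CPM in MaxKO and 126 ± 17.5 CPM in Ctrl libraries (edgeR adjusted p = 0.77). Rpl3, which encodes a protein near the peptidyl transferase centre, averaged 981 ± 48.4 CPM in MaxKO and 973 ± 161 CPM in Ctrl libraries (edgeR adjusted p = 0.96). Rpl10, whose protein joins late in assembly of the large subunit, averaged 831 ± 55.0 CPM in MaxKO and 760 ± 91.7 CPM in Ctrl libraries (0.13, edgeR adjusted p = 0.39). Rpl39, which lines the exit tunnel, averaged 188 ± 9.34 CPM in MaxKO and 200.1 ± 32 CPM in Ctrl libraries (edgeR adjusted p = 0.62). Rps19bp1 averaged 27.3 ± 2.47 CPM in MaxKO and 27.4 ± 5.18 CPM in Ctrl libraries, and its log2 fold change was -0.00034 (edgeR adjusted p = 1.00).

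The tissue-restricted paralogs were at or near 0. Rpl10l, which is expressed in testis, had 0 reads in all 8 libraries. Rpl39l, also a testis paralog, had 1 read in MaxKO 3 and 1 in Ctrl 3. Rpl3l, which is expressed in striated muscle, had 1 read each in MaxKO 2 and MaxKO 4 and 2 reads in Ctrl 3. No fold change is given for these genes, which were at or under the floor of 3 counts in every library.

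Levels between genes were compared per kilobase of coding sequence, using the lengths of the annotated principal transcripts. Among the 77 tested members with at least 10 CPM in some library, the median was 1073 CPM per coding kilobase, averaged over all 8 libraries. Rpl41, which encodes the shortest ribosomal protein, stood highest at 13789.6 in MaxKO and 14558.5 in Ctrl libraries, a value raised by its coding sequence of 78 bases within an mRNA of 582 bases. Rpl23a came next, at 1971 in MaxKO and 2166 in Ctrl libraries, followed by Rpl11, Rplp1 and Rps21 at 1891 to 1947 over all libraries. Rpl23a averaged 929 ± 64.6 CPM in MaxKO and 1020 ± 208 CPM in Ctrl libraries (edgeR adjusted p = 0.51), and Rps21 averaged 467 ± 45.4 CPM in MaxKO and 486 ± 90.9 CPM in Ctrl libraries (edgeR adjusted p = 0.79). At the low end stood Rps19bp1 at 63.2, Rpl7l1 at 160, Rpl22l1 at 237, Rpl22 at 442 and Rps27l at 485 CPM per coding kilobase over all libraries.

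Ribosomal proteins that every cell needs were nevertheless counted at almost nothing for 4 members. Over all 8 libraries Rpl26 had 2.06, Rps27 4.61, Rpl34 12.6 and Rpl30 14.4 CPM per coding kilobase, against the median of 1073. Each of the 4 shares sequence with other genes: 98.7% of the 50-base stretches of the Rps27 mRNA, 76.4% of Rpl30, 71.3% of Rpl26 and 37.9% of Rpl34 occur exactly in at least 1 other annotated transcript. The closest partner was the protein-coding retrogene Rps27rt for Rps27, with 292 shared stretches, and the processed pseudogene Rpl34-ps1 for Rpl34, with 218. Rpl34-ps1 was itself in the tables, at 29.4 ± 1.21 CPM in MaxKO and 33.2 ± 6.17 CPM in Ctrl libraries, several times the level counted for Rpl34. The levels of these 4 members are therefore uncertain.

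Their values per library were correspondingly low. Rpl30 had 4.07, 4.58, 4.07 and 3.96 CPM in MaxKO libraries 1 to 4, against 7.10, 5.95, 6.22 and 4.15 CPM in Ctrl libraries 1 to 4, and Ctrl 4 lay within the MaxKO range (-0.49, edgeR adjusted p = 0.066). Rps27 had 0.783, 1.13, 0.948 and 0.766 CPM in MaxKO libraries 1 to 4, against 1.76, 2.10, 1.03 and 0.898 CPM in Ctrl libraries 1 to 4 (-0.69, edgeR adjusted p = 0.14). Rpl34 had 3.86, 4.58, 3.18 and 3.83 CPM in MaxKO libraries 1 to 4, against 6.70, 6.56, 4.83 and 2.13 CPM in Ctrl libraries 1 to 4 (-0.39, edgeR adjusted p = 0.39). In Rps27 and Rpl34, Ctrl 1 and 2 were high and Ctrl 4 was within or below the MaxKO range. Rpl26 had 6 to 20 reads in MaxKO libraries and 13 to 22 in Ctrl libraries (-0.42, edgeR adjusted p = 0.38).

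Sharing of sequence was general in the family. Of 84 members matched to an annotated transcript, 80 had at least 1 stretch of 50 bases in another gene. The median share over the 81 tested members was 57.4%, from 0 to 98.7%. Across these 81 genes, which are not independent and share the same 8 libraries, Spearman's correlation between the share and the level per coding kilobase was -0.14. Between the share and the log2 fold change it was -0.09, and the median log2 fold change was -0.10 in the 47 members with at least 50% shared and -0.08 in the other 34. RefSeq names 307 retrocopies of members with -ps symbols, while the tables held 3 such symbols, of which Rplp2-ps1 was at 0.

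Both called members have such copies. Rpl29 shares 66.6% of its 50-base stretches with 84 other genes, of which 81 are pseudogenes, and Gm6344 is the processed pseudogene with the most, 323. Rpl14 shares 49.3% with 1 pseudogene, Rpl14-ps1. Reads that could belong to these copies were not separated from the genes here, so both levels are uncertain to that extent.

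**Figure D5:**
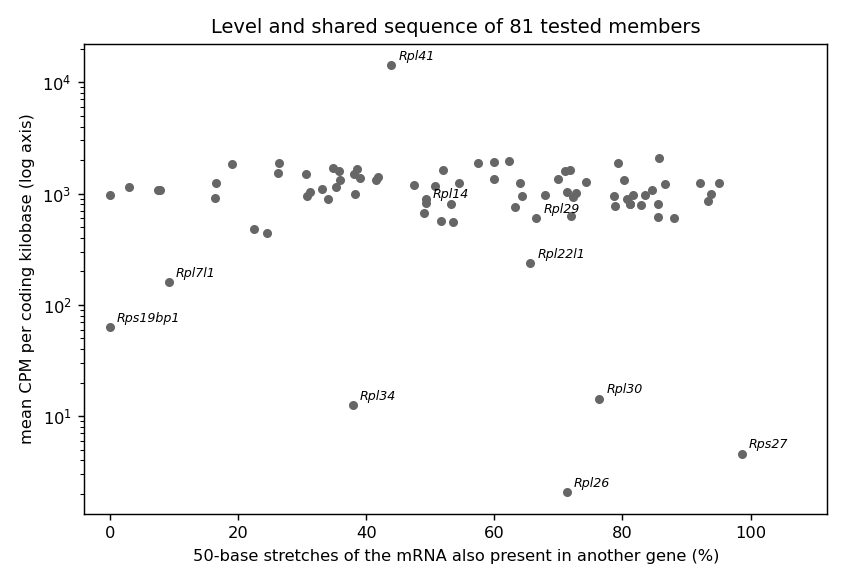
Mean CPM per coding kilobase over the 8 libraries (y axis, log scale) against the percentage of the mRNA's 50-base stretches found in another gene (x axis) for the 81 tested members. Rpl26, Rps27, Rpl34 and Rpl30 lie at 2.06 to 14.4, far below the median of 1073, while other members with shares as high lie near that median.

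Which Ctrl libraries entered the comparison decided how many members were called. Against Ctrl 1 and 2 alone, 1 member was higher and 30 were lower in MaxKO libraries by edgeR's quasi-likelihood test, while 44.6% of all tested genes were called, 22% higher and 22.6% lower. The 30 comprised 12 small-subunit genes, 16 large-subunit genes and 2 of the paralogs, and the higher one was Rpl7l1 (0.22, edgeR adjusted p = 0.0146). Against Ctrl 3 and 4 alone, 0 members were higher and 2 lower, while 20.7% of all tested genes were called, 9.39% higher and 11.3% lower. Both comparisons use the same MaxKO libraries, and the difference between them was not tested. Over all tested genes, log2 CPM of Ctrl 1 and Ctrl 2 had a Pearson correlation of 0.995, and pairs of MaxKO libraries 0.993 to 0.995. The other pairs of Ctrl libraries had 0.973 to 0.983. The adjusted p against Ctrl 1 and 2 thus rest, on the Ctrl side, on 2 closely alike libraries.

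Rpl29 and Rpl14 passed the threshold against either pair of Ctrl libraries. Rpl29 had a log2 fold change of -0.64 against Ctrl 1 and 2 and of -0.73 against Ctrl 3 and 4 (edgeR adjusted p = 0.0117). Rpl14 had -0.36 (edgeR adjusted p = 0.000919) and -0.70 (edgeR adjusted p = 0.0198). Rpl13a, a large-subunit gene whose protein is also known from translational control in macrophages and whose E-box is shown above, was 1 of the other 28 that were lower against Ctrl 1 and 2. It had 1140, 1006, 1065 and 951 CPM in MaxKO libraries 1 to 4, against 1393, 1409, 1352 and 831 CPM in Ctrl libraries 1 to 4. Ctrl 4 alone lay below the MaxKO libraries, and the log2 fold change was -0.26 with all libraries (edgeR adjusted p = 0.24), -0.43 against Ctrl 1 and 2 (edgeR adjusted p = 0.000178) and -0.08 against Ctrl 3 and 4 (edgeR adjusted p = 0.79).

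Leaving out Ctrl 4 alone raised the count of lower members to 24 of 81, with 0 higher, while 13.7% of all tested genes were called higher and 14.1% lower. Leaving out Ctrl 3 gave 2 lower and 1 higher, while 13.2% of all tested genes were called higher and 14.3% lower. Leaving out any 1 MaxKO library gave 1 lower, Rpl29, and 0 higher, while 7.12 to 8.55% of all tested genes were called higher and 8.42 to 10.5% lower. When the share outside exons was added to the fit, 3 members were lower and 0 higher, while 16.9% of all tested genes were called higher and 16.2% lower. With libraries scaled to the summed members, an alternative chosen after seeing the data, 1 member was lower and 0 higher, while 9.45% of all tested genes were called, 4.13% higher and 5.32% lower.

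Members with an E-box in the window were described beside those without. The 6 had log2 fold changes of -0.53 (Rpl14), -0.39 (Rpl34), -0.26 (Rpl13a), -0.10 (Rpl19), -0.08 (Rps19) and -0.08 (Rpl23), with a median of -0.18, against -0.09 for the 55 tested members with a window and no E-box. Of the 6, Rpl14 was called and the other 5 were not. Rpl29, the other called member, had no window, so its motifs were not searched and it is in none of these medians. With 6 values the median falls between Rpl13a and Rpl19, and the difference from the members without an E-box was not tested. The gap was wider for the YY1 motif, whose 6 tested members had a median of -0.23, against -0.09 for the 55 without it. For the ETS motif the medians were -0.094 with it and -0.094 without, and for the GC box -0.09 and -0.10. These differences were not tested either. The level of Rpl34 is uncertain, as given above, and its log2 fold change was 0.17 against Ctrl 3 and 4 alone. The 13 members with a TOP start at the annotated base had a median of -0.11, against -0.08 for the 48 others. Those others may include TOP mRNAs whose annotated start is not exact. Among the TOP members shown, Rpl38, which encodes a protein known for its part in translating Hox mRNAs, averaged 313 ± 45.2 CPM in MaxKO and 377 ± 99.0 CPM in Ctrl libraries (-0.27, edgeR adjusted p = 0.34). Rpl15 averaged 577 ± 27.7 CPM in MaxKO and 620 ± 92.9 CPM in Ctrl libraries, and Rps18 averaged 545 ± 34.8 CPM in MaxKO and 563 ± 94.0 CPM in Ctrl libraries, neither called by edgeR (adjusted p = 0.54 for Rpl15 and 0.82 for Rps18).

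Other genes of the pathway were compared in the same fit, in which 10.9% of all tested genes were called higher and 12.2% lower. Of 14 other TOP mRNAs, among them those of elongation factors and poly(A)-binding protein, 0 were called in either direction, with a median of -0.01. Against Ctrl 1 and 2 alone, 3 were higher and 3 lower, and against Ctrl 3 and 4 alone 0 were called. Of all tested genes, 22% were higher and 22.6% lower against Ctrl 1 and 2, and 9.39% and 11.3% against Ctrl 3 and 4. The most abundant, Eef1a1, had 5886 ± 465 CPM in MaxKO and 5336 ± 664 CPM in Ctrl libraries (0.14, edgeR adjusted p = 0.39). Of 9 genes comprising Larp1 and factors that chaperone or assemble ribosomal proteins, 1 was higher and 0 lower, with a median of 0.11. That gene was Ltv1, which encodes an assembly factor of the small subunit. It had 62.2, 67.2, 68.9 and 57.6 CPM in MaxKO libraries 1 to 4, against 46.9, 45.3, 53.4 and 50.3 CPM in Ctrl libraries 1 to 4, without overlap (0.39, SE 0.085, edgeR adjusted p = 0.0066). With libraries scaled to the summed members the log2 fold change was larger, but so was its SE, and the call ended (0.45, SE 0.182, edgeR adjusted p = 0.126). That fit called 4.13% of all tested genes higher and 5.32% lower. Larp1 averaged 553 ± 33.5 CPM in MaxKO and 445 ± 91.3 CPM in Ctrl libraries and did not pass (0.31, edgeR adjusted p = 0.0993), but did against Ctrl 1 and 2 alone (0.56, edgeR adjusted p = 8.04e-06).

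The 76 mitochondrial ribosomal protein genes had a median of 0.02, with 2 called higher and 2 lower, and against Ctrl 1 and 2 alone 9 higher and 7 lower. Of all tested genes, 10.9% were called higher and 12.2% lower, and against Ctrl 1 and 2 alone 22% and 22.6%. Mrps22 had 17.5 ± 1.38 CPM in MaxKO and 27.7 ± 2.18 CPM in Ctrl libraries (-0.66, edgeR adjusted p = 0.000487). Mrpl3 had 30.8 ± 2.03 CPM in MaxKO and 43.8 ± 4.44 CPM in Ctrl libraries (-0.51, edgeR adjusted p = 0.0021). Mrpl55 had 36.9 ± 1.16 CPM in MaxKO and 27.4 ± 2.64 CPM in Ctrl libraries (0.43, edgeR adjusted p = 0.0037), and Mrpl39 had 53.7 ± 2.88 CPM in MaxKO and 41.6 ± 2.07 CPM in Ctrl libraries (0.37, edgeR adjusted p = 0.0041). In none of these 4 genes did the groups overlap. With libraries scaled to the summed members, Mrps22 stayed called (edgeR adjusted p = 0.0337), while Mrpl3, Mrpl55 and Mrpl39 did not (edgeR adjusted p = 0.145 for Mrpl3, 0.0565 for Mrpl55 and 0.124 for Mrpl39). The log2 fold changes were then -0.59 (SE 0.181) for Mrps22, -0.43 (SE 0.181) for Mrpl3, 0.52 (SE 0.174) for Mrpl55 and 0.45 (SE 0.179) for Mrpl39. With TMM scaling the SEs were smaller, at 0.093, 0.091, 0.086 and 0.075 in the same order. The SDs are over n = 4 libraries in each group.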

How the data were processed

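RNA-seq counts per gene symbol of 8 libraries were used as deposited. Per the submitters' processing notes, the authors made these counts with bcl2fastq 1.8.4, TopHat2 2.0.12 and HTSeq 0.6.1 on the mm9 build. Neither the annotation nor the strand setting is given in the sources used here, so reads of genes on opposite strands may have been mixed. Rows that name no gene were left out of library sizes and tests, and gave the shares of reads outside exons and of alignments that were not unique.

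In R 4.3.3, genes were kept with filterByExpr, scaled with TMM and compared in edgeR 4.0.16 (quasi-likelihood, robust) with group as the only term. Benjamini-Hochberg adjustment ran over all 13358 tested genes. Each SE was derived from the log2 fold change and the F statistic. CPM of genes under the filter use the same scaled library sizes. limma-voom (limma 3.58.1), DESeq2 1.42.0, other scalings and filters, a replicate block and leaving out libraries were the alternatives. The procedure was tested on simulated counts.

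Shared 50-base stretches and coding lengths came from GENCODE transcripts of GRCm38, matched by symbol. Promoter windows came from RefSeq GRCm38.p6, and a member with no window there was not searched. Protein sequences were not used here.

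Members and gene lists were chosen with earlier results of these data known. Genes were named if called, if in fixed functional groups or paralog pairs, if among the 5 highest or lowest per coding kilobase, or if called in the other lists (the 3 largest of the mitochondrial one). Rps4l, of that rule, was not a symbol in the files. Some listed genes are not reported here. Rpsa, Fau, Gnb2l1, Rpl13a, Rpl15, Rpl19, Rpl23, Rpl30, Rpl34, Rpl38, Rps18, Rps19, Rps4y2, Eef1a1, Larp1, Mrpl39 and the marker genes fall outside this rule and were picked with their values in view.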

Additional observations from a re-analysis of the deposited data

Results flagged for a closer look

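Among 70 groups of 4 libraries examined for named genes and the family's share of counts, 4 held a library far from the others, its gap to the next library divided by the group's range being above Dixon's 95% critical value of 0.829. About 1 in 20 independent groups meets this by chance, but these groups are not independent, because the members move together across libraries. Rpsa, Rpl13a, Rpl30 and Rpl34 were added to the check with their values in view. The count of 4 thus cannot be set against chance. All 4 were in Ctrl libraries. Rpl14 had 906.7 CPM in Ctrl 3, with 564.8 CPM in the next Ctrl library. Rpsa had 1762 CPM in Ctrl 3, with 997 CPM in the next. Rpl13a had 831 CPM in Ctrl 4, with 1352 CPM in the next. Rpl39 had 152.6 CPM in Ctrl 4, with 211.1 CPM in the next.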

How the results depend on the processing

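The count of lower members, 2 with all libraries, was 2 or 3 under every other scaling, filter and tool tried, except that it was 1 with libraries scaled to the summed members, and 30 with Ctrl 1 and 2 only, where 1 member was higher. Under the scalings, filters and tools that gave 2 or 3, 7.16 to 12.5% of all tested genes were called higher and 8.2 to 14.7% lower. These shares were 4.13% and 5.32% with libraries scaled to the summed members, and 22% and 22.6% with Ctrl 1 and 2 only. Leaving out 1 library at a time gave 1 to 24 lower and 0 to 1 higher members. In those fits 7.12 to 13.7% of all tested genes were called higher and 8.42 to 14.3% lower. The replicate numbers do not pair the samples (correlations of deviations -0.20, -0.01, 0.0020 and -0.11, and no library matched its own number best). With the replicate number as a block, 0 members were higher and 2 lower, and the median was -0.08. That fit called 9.04% of all tested genes higher and 9.91% lower. The median over members lay between -0.14 and 0.0062 in the fits without left-out libraries. The upper end came from the fit scaled to the summed members. That scaling sets the family's total equal across libraries, so it holds the median near 0 in advance. None of the members that changed sign was called with all libraries, and all but Rpl34 (-0.39) lay within 0.2 of 0 there. With upper-quartile scaling they were Rpl5 (-0.029), Rpl3 (-0.036) and Rps4x (-0.010), and with plain library totals Rpl5 (-0.013) and Rpl3 (-0.020). Rps19bp1 was at 0.0070 without a filter, 0.026 with limma-voom, 0.011 with the block, 0.034 with Ctrl 1 and 2 only and 0.00043 with the share outside exons as a term. Rplp0 was at 0.0028 with Ctrl 1 and 2 only. With Ctrl 3 and 4 only, Rpl3 was at -0.060, Rpl39 at 0.029, Rps4x at -0.061, Rps27l at 0.12, Rpl41 at 0.0011 and Rpl34 at 0.17. With libraries scaled to the summed members, Rplp0 was at 0.024, Rplp1 at 0.019, Rplp2 at 0.0062, Rpl11 at 0.039, Rpl7 at 0.00024, Rpl39 at 0.0064, Rps27l at 0.028, Rps19bp1 at 0.092, Rpl41 at 0.021 and Rps21 at 0.040. Leaving out 1 library gave -0.18 to 0.088 for Rplp0, -0.21 to 0.032 for Rplp1, -0.068 to 0.10 for Rpl5, -0.18 to 0.069 for Rpl11, -0.21 to 0.048 for Rps6, -0.057 to 0.13 for Rpl3, -0.17 to 0.022 for Rpl7, -0.0072 to 0.17 for Rpl36al, -0.031 to 0.18 for Rps4x, -0.13 to 0.0051 for Rps27l, -0.091 to 0.12 for Rps19bp1, -0.21 to 0.0076 for Rpl41 and -0.18 to 0.031 for Rps21. With libraries scaled to the summed members, member values near 0 follow from the scaling itself. The cause of the other changes was not tested. Depth limited only the members under 10 CPM.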
